A study of Rattus norvegicus with 56 samples.

Results

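Rbm3 and Cirbp encode the cold-inducible RNA-binding proteins, and their transcripts were followed on arrays of cultured rat hippocampal neurons after magnetic stimulation. The genes were chosen by their change over time in these arrays, and every probe whose RefSeq entry belonged to either gene was kept and is shown apart. These 2 genes were among 16475 with a symbol and a probe with a value on every array used, before the filter on dim probes. They had 4 of the 45598 probes, 2 for Rbm3 and 2 for Cirbp, and all 4 passed the filter on dim probes. The values of 24 and 48 h against 0 and 2 h chose the members, so that change is described here without a test. Tests were run only between stimulated, sham and untreated cultures. A comparison of that change between the arms was added later, and its p-values are given only as a description.

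The cultures were primary hippocampal neurons of E18 Sprague-Dawley rats, and the stimulus was repetitive transcranial magnetic stimulation (rTMS) from a coil under the dish. The arms were 1 Hz stimulation, a slow and even train of pulses, intermittent theta burst stimulation (iTBS), made of brief high-frequency bursts with pauses, and sham, in which the dish sat in the incubator with the coil at a distance. RNA was collected 0, 2, 8, 24 or 48 h after the stimulation in each of these arms, and at 0 h only from untreated cultures. Each array held the RNA of 1 sample, 56 arrays fell into 16 groups, and 1 array (1 Hz at 2 h replicate 2), whose grid was marked as badly placed, was left out. The sources give the same strain, embryo age and culture protocol for all groups. For 1 Hz, iTBS and sham they describe an incubator with added insulation against loss of carbon dioxide and cooling. After stimulation these dishes went back to their home incubator. How untreated cultures were handled is not described, and no temperature of the cultures was given in the sources used here. The labels do not say whether the samples of a group came from separate cultures, so p-values measure the spread between these samples, which may be technical. Each array measured RNA of the whole dish, in which fewer cells of a type and less RNA per cell cannot be told apart.

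A sample number in the labels divided the arrays into 4 runs through the same groups, called series A, B, C and D here. Most groups of sham, 1 Hz and iTBS had 1 array from each of 3 or 4 series, 1 Hz at 2 h had arrays of C and D only, and untreated cultures had 2 arrays of A and 2 of C. Among the 55 arrays used, 66.1% to 81.8% of noncontrol spots were well above background, no spot was saturated and signals of array pairs correlated between 0.940 and 0.993. The neuronal label was checked against 8 neuron markers, among them Tubb3, Map2 and Snap25, and all were well above background on every array. The same held for all 5 astrocyte markers, all 6 markers of the oligodendrocyte lineage, all 4 fibroblast markers and all 3 progenitor markers. Of the microglia markers, Cx3cr1 and Itgam were well above background on 55, P2ry12 on 54, Aif1 on 32 and Csf1r on 7 of the 55 arrays. Of the endothelial markers, Cdh5 was so on 55, Pecam1 on 53 and Cldn5 on 6.

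Rbm3 and Cirbp are small proteins with a single RNA recognition motif and a glycine-rich tail. Their transcripts rise when cells are cooled mildly and decline when they are warmed, and both proteins bind many messenger RNAs and affect their stability, splicing and translation. In neurons Rbm3 is known for its part in keeping and rebuilding synapses after cooling, and Cirbp for a role in coupling body temperature to the cellular clock.

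The promoters are shown because an element for the response to mild cold is known from that of Cirbp. RefSeq holds both in build GRCr8, each as 250 bases before and 50 bases after the start of the gene, and both genes were matched by symbol. Capitals mark matches to any of the motifs searched on both strands, which were TCCCCGCC (the mild cold element), GGGCGG (a GC box), TGACGTCA (the cyclic AMP element), GAANNTTC (a pair of heat shock units) and CCAAT. The Rbm3 promoter lies on the plus strand of chrX:17020655-17020954 and the Cirbp promoter on the minus strand of chr7:10189426-10189725.
Rbm3: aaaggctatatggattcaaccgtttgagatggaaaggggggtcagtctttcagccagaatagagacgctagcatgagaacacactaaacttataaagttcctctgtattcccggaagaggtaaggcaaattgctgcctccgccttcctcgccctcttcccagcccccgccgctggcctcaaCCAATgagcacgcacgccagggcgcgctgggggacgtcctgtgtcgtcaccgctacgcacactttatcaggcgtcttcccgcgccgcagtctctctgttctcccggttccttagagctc
Cirbp: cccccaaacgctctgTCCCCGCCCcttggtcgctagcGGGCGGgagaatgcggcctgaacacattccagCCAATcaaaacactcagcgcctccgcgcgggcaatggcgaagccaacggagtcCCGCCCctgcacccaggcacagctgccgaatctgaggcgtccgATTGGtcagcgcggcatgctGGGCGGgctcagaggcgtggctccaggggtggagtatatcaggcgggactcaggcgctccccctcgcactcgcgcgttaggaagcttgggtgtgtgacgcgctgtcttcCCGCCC

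The Cirbp window held 1 match to TCCCCGCC, at base 16 of the window, and this match overlapped 1 of its 5 GC boxes. The element was found in 4.79% of 33469 rat promoters of the same length and was not in the Rbm3 window. GGGCGG was also absent from the Rbm3 window and was found in 33.1% of all promoters. CCAAT was found in both windows, once at base 182 of Rbm3 and 2 times in Cirbp, at bases 70 and 166, and in 37.5% of all promoters. Neither window held TGACGTCA, found in 1.83% of promoters, or GAANNTTC, found in 8.59%. The Rbm3 window had 56.3% and the Cirbp window 67% G and C. A match of letters is a description of the window and not evidence of a bound site.

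The level of a probe is its log2 processed signal turned into a z-score within the array and rescaled by 4.06, the median over arrays of that SD, which puts differences back in log2 units. An array thus has a mean of 0, and levels are compared between arrays for 1 probe and not between probes. The Rbm3 probe with the higher mean signal, A_44_P1083168, is called its reference probe and is printed on 10 spots, whose log2 signals had a median SD of 0.048 within an array. The second Rbm3 probe, A_44_P548203, is printed on 2 spots. For Cirbp the reference probe is A_44_P1087028 and the second probe A_44_P1107238, each on 1 spot. Both probes of a gene carry the same RefSeq accession. All 4 probes were well above background on 55 of 55 arrays.

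Rbm3 was lower at 24 and 48 h than at 0 and 2 h in sham, 1 Hz and iTBS cultures alike, on both of its probes. Over 11 pairs of arm and series the second probe was lower by a mean of 3.32-fold and the reference probe by 2.13-fold, and every pair had the same sign. On the second probe, sham cultures of series A to D had levels of 6.07, 5.45, 5.04 and 5.36 at 0 h. At 2 h they had 5.68, 5.12, 4.63 and 5.55. At 8 h series B, C and D had 5.14, 4.45 and 5.36. These 3 times overlapped, and series C was the lowest at each of them. At 24 h series B, C and D had 4.22, 3.02 and 3.57. At 48 h series A, C and D had 3.54, 2.98 and 3.39. Every sham array of 24 and 48 h lay below every sham array of 0, 2 and 8 h on this probe.

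The 1 Hz and iTBS cultures also had their lowest levels of the second Rbm3 probe at 24 and 48 h. At 0 h series B, C and D had 5.54, 4.74 and 5.17, and at 2 h series C and D had 4.29 and 5.50. Series A to D at 8 h had 5.58, 5.32, 4.35 and 5.18. At 24 h series A, C and D had 4.00, 3.50 and 3.62, and at 48 h series A to D had 4.13, 3.22, 2.76 and 3.51. The late arrays of 1 Hz, like those of sham, did not overlap the arrays of 0, 2 and 8 h. After iTBS, series A to D had 5.53, 5.43, 4.84 and 5.35 at 0 h and 4.89, 5.21, 4.18 and 5.61 at 2 h. Series B, C and D at 8 h had 5.18, 4.09 and 5.16. At 24 h they had 3.96, 3.25 and 3.46, and at 48 h series A to D had 4.07, 2.97, 2.68 and 3.86. In iTBS the late and earlier arrays did not overlap either, although series A at 48 h lay just under series C at 8 h. Within each of the 4 series, all arrays of 24 and 48 h from the 3 arms together lay below all arrays of 0, 2 and 8 h. The change over time chose the genes, and the share of all probes that separate within arms or series was not computed. Nothing is read from these separations.

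Group means on the second probe fell into the order 0, 2, 8, 24 and 48 h in sham and in iTBS. In sham they were 5.48 ± 0.43 (SD, n = 4), 5.24 ± 0.47 (n = 4), 4.98 ± 0.47 (n = 3), 3.60 ± 0.60 (n = 3) and 3.30 ± 0.29 (n = 3). In iTBS they were 5.29 ± 0.31 (n = 4), 4.97 ± 0.60 (n = 4), 4.81 ± 0.62 (n = 3), 3.55 ± 0.37 (n = 3) and 3.39 ± 0.67 (n = 4). In 1 Hz they were 5.15 ± 0.40 (n = 3), 4.90 ± 0.86 (n = 2), 5.11 ± 0.53 (n = 4), 3.71 ± 0.26 (n = 3) and 3.41 ± 0.57 (n = 4). Neighbouring times differed by less than the larger SD of the pair in each arm, except for 8 and 24 h, which differed by more. The step from 8 to 24 h within a series was −1.32 ± 0.37 (SD over 9 pairs of arm and series), against −0.23 ± 0.37 (10 pairs) from 0 to 2 h, −0.15 ± 0.17 (8 pairs) from 2 to 8 h and −0.26 ± 0.47 (8 pairs) from 24 to 48 h.

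**Figure D1:**
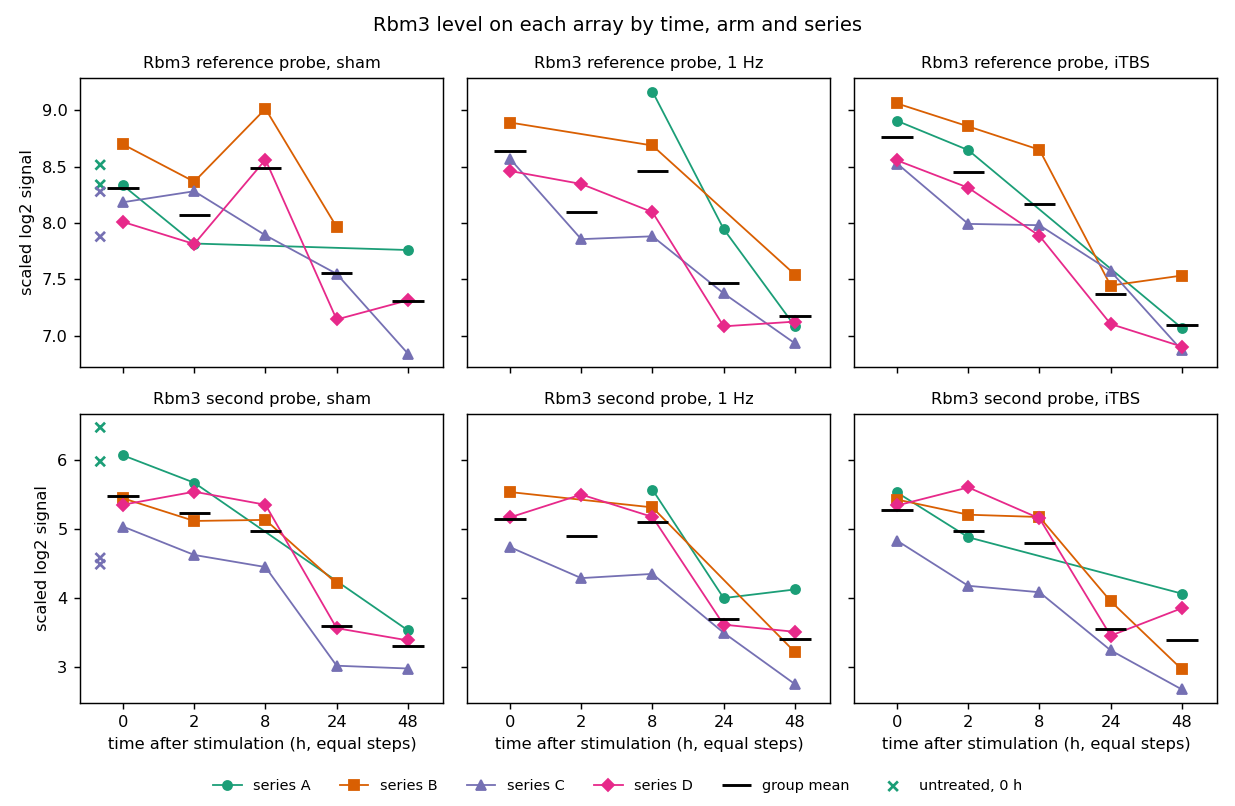
Level of Rbm3 (scaled log2 signal, vertical axes) against time after stimulation in equal steps, for the reference probe (top) and the second probe (bottom) in sham, 1 Hz and iTBS cultures. Each point is 1 array, coloured by series and joined within a series, black bars are group means, and crosses are untreated arrays. On the second probe the sham arrays run from 4.45 to 6.07 at 0 to 8 h and from 2.98 to 4.22 at 24 and 48 h.

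On the reference probe of Rbm3 the late levels were lower too, by amounts that varied among the arms. Sham series A to D had 8.33, 8.70, 8.18 and 8.01 at 0 h and 7.82, 8.37, 8.28 and 7.81 at 2 h. At 8 h series B, C and D had 9.01, 7.89 and 8.56, the first of which was the highest level of any sham array. At 24 h they had 7.96, 7.55 and 7.14, and at 48 h series A, C and D had 7.76, 6.84 and 7.31. Sham arrays of the early and late times overlapped on this probe, since series B at 24 h was above series A and D at 2 h. In sham series A the difference of 48 h from 0 and 2 h was −0.32, the smallest of all pairs.

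After 1 Hz, series B, C and D had 8.89, 8.57 and 8.46 on the reference probe at 0 h, and series C and D had 7.86 and 8.35 at 2 h. At 8 h series A to D had 9.17, 8.69, 7.88 and 8.10. At 24 h series A, C and D had 7.95, 7.37 and 7.08, and at 48 h series A to D had 7.08, 7.54, 6.93 and 7.12. One late array, series A at 24 h, was above series C at 2 and 8 h, and the other late arrays of 1 Hz lay below the earlier ones. After iTBS, series A to D had 8.91, 9.06, 8.53 and 8.56 at 0 h and 8.65, 8.86, 7.99 and 8.31 at 2 h. Series B, C and D at 8 h had 8.65, 7.98 and 7.89. At 24 h they had 7.44, 7.57 and 7.10, and at 48 h series A to D had 7.07, 7.53, 6.87 and 6.90. Every iTBS array of 24 and 48 h lay below every iTBS array of 0, 2 and 8 h on this probe.

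Group means on the reference probe were highest at 8 h in sham and at 0 h in both stimulated arms. In sham they were 8.31 ± 0.29 (SD, n = 4), 8.07 ± 0.30 (n = 4), 8.49 ± 0.57 (n = 3), 7.55 ± 0.41 (n = 3) and 7.30 ± 0.46 (n = 3) in the order of the times. In 1 Hz they were 8.64 ± 0.22 (n = 3), 8.10 ± 0.35 (n = 2), 8.46 ± 0.58 (n = 4), 7.47 ± 0.44 (n = 3) and 7.17 ± 0.26 (n = 4). In iTBS they were 8.76 ± 0.26 (n = 4), 8.45 ± 0.38 (n = 4), 8.17 ± 0.42 (n = 3), 7.37 ± 0.24 (n = 3) and 7.09 ± 0.31 (n = 4). Neighbouring times differed by more than the larger SD of the pair between 8 and 24 h in each arm and between 0 and 2 h in 1 Hz, and by less otherwise. The step from 8 to 24 h was −0.88 ± 0.39 (SD over 9 pairs of arm and series), and the difference of 48 h from 0 h was −1.36 ± 0.42 (10 pairs). The processed signals behind this probe ran from 6363 to 60577 intensity units over the arrays.

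Cirbp was lower at the late times by less than Rbm3. On its reference probe the difference of 24 and 48 h from 0 and 2 h was −0.55 ± 0.15 (SD over 11 pairs of arm and series), or 1.46-fold, with the same sign in 11 of 11 pairs and a range from −0.80 to −0.30. Sham series A to D had 7.43, 7.53, 7.49 and 7.51 at 0 h and 7.36, 7.50, 7.41 and 7.33 at 2 h. At 8 h series B, C and D had 7.11, 6.96 and 7.53. At 24 h they had 6.89, 7.07 and 7.12, and at 48 h series A, C and D had 7.10, 6.68 and 6.84. All sham arrays of 24 and 48 h lay below those of 0 and 2 h, and they overlapped those of 8 h.

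After 1 Hz the Cirbp reference probe had 7.58, 7.72 and 7.65 in series B, C and D at 0 h and 7.03 and 7.77 in series C and D at 2 h. Series A to D at 8 h had 7.26, 7.04, 6.99 and 7.39. At 24 h series A, C and D had 6.69, 6.999 and 6.98, and at 48 h series A to D had 6.73, 6.996, 6.62 and 7.36. All arrays of 0 h lay above all arrays of 8, 24 and 48 h in this arm. After iTBS, series A to D had 7.34, 7.61, 7.53 and 7.80 at 0 h and 7.64, 7.57, 7.08 and 7.61 at 2 h. Series B, C and D at 8 h had 6.93, 7.09 and 7.09. At 24 h they had 6.44, 7.01 and 7.05, and at 48 h series A to D had 7.09, 7.15, 6.63 and 6.86. The array of series C at 2 h lay among the later arrays, and all other iTBS arrays of 0 and 2 h lay above them.

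The steps over time lay at different places for the 2 genes, a comparison that was not tested. On the Cirbp reference probe the difference of 8 h from 0 h was −0.48 ± 0.24 (SD over 9 pairs of arm and series), and 24 h differed from 8 h by −0.23 ± 0.24 (9 pairs). On the second Rbm3 probe the same differences were −0.30 ± 0.25 and −1.32 ± 0.37 over the same 9 pairs. Group means of the Cirbp reference probe in sham were 7.49 ± 0.04 (SD, n = 4), 7.40 ± 0.07 (n = 4), 7.20 ± 0.29 (n = 3), 7.03 ± 0.12 (n = 3) and 6.87 ± 0.21 (n = 3) in the order of the times. In 1 Hz they were 7.65 ± 0.07, 7.40 ± 0.53, 7.17 ± 0.19, 6.89 ± 0.17 and 6.93 ± 0.33 at these times. In iTBS they were 7.57 ± 0.19, 7.47 ± 0.27, 7.04 ± 0.09, 6.84 ± 0.34 and 6.93 ± 0.24. Neighbouring times differed by more than the larger SD of the pair for 0 and 2 h in sham, 8 and 24 h in 1 Hz and 2 and 8 h in iTBS, and by less otherwise.

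The second Cirbp probe did not follow this course in every series. Its difference of late from early times was −0.25 ± 0.39 (SD over 11 pairs of arm and series), lower in 8 of 11 pairs, and ran from −0.83 to 0.23. In sham it was −0.66, −0.83, −0.04 and −0.32 in series A to D, in iTBS 0.04, −0.73, 0.23 and −0.07, and in 1 Hz −0.58, 0.20 and −0.04 in series B to D. Series B was the lowest in each arm. The levels of this probe ran from 0.17 to 2.12 over the arrays, with a median processed signal of 239.7 intensity units, against 14819 for the reference probe.

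**Figure D2:**
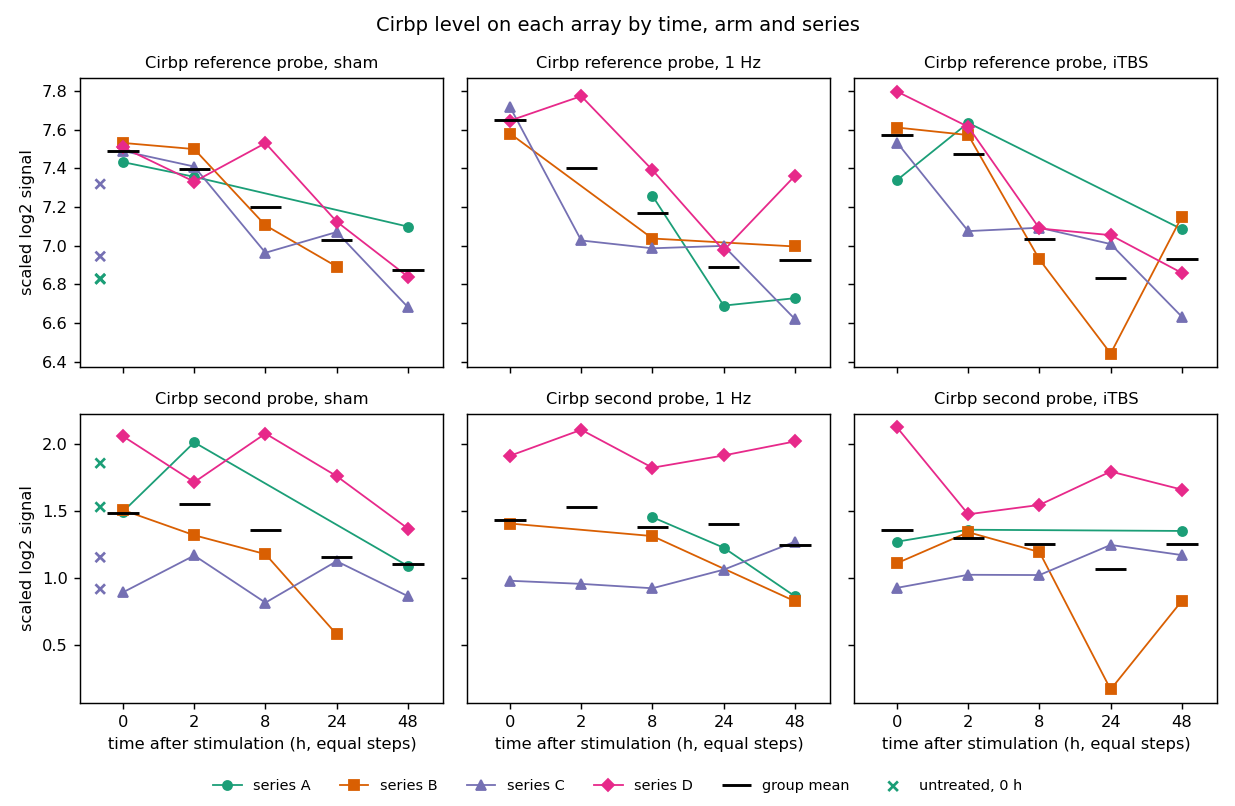
Level of Cirbp (scaled log2 signal, vertical axes) against time after stimulation in equal steps, for the reference probe (top) and the second probe (bottom) in sham, 1 Hz and iTBS cultures. Points, lines, bars and crosses stand for arrays, series, group means and untreated arrays. The reference probe has sham means of 7.49 at 0 h and 6.87 at 48 h, and the 4 untreated arrays, from 6.83 to 7.32, lie below the 4 sham arrays of 0 h.

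Set beside all 35694 probes tested, whose median change over the same pairs was −0.04 with 5th and 95th percentiles of −0.52 and 0.63, the second Rbm3 probe had the 8th lowest mean change and the reference probe the 104th lowest. The Cirbp reference probe was 1530th and its second probe 7719th from the lowest. Lower in every pair of arm and series were 2.16% of all probes, and 4.42% were higher in every pair. Both Rbm3 probes and the Cirbp reference probe were among the former, and since this change chose the genes, nothing is read from it. Among probes with a gene symbol, those of Slc2a2 (−2.18), Ccn1 (−2.12) and Npas4 (−1.80) lay just below the second Rbm3 probe (−1.73) and that of Hbbl1 (−1.62) just above it.

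**Figure D3:**
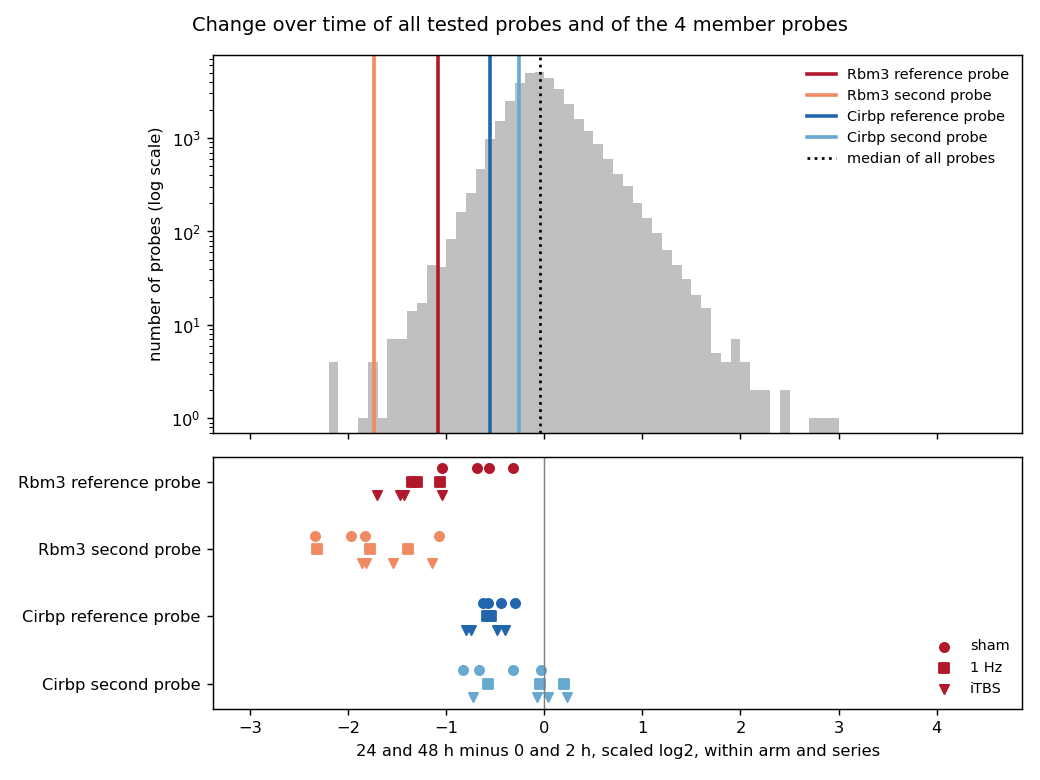
Top: number of probes (log scale) by their mean change, 24 and 48 h minus 0 and 2 h, over 11 pairs of arm and series, with coloured lines for the 4 member probes and a dotted line for the median of all probes. Bottom: the change of each member probe in each pair, with circles for sham, squares for 1 Hz and triangles for iTBS. The mean of the second Rbm3 probe is −1.73, that of the Rbm3 reference probe −1.09, and the median of all probes −0.04.

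The arrays lay on 7 slides, which were spread unevenly over series and times, so early and late arrays of 1 series were also compared within a slide. On slide 2, series A had a late level of 3.93 (4 arrays) against 5.23 at 2 and 8 h (2 arrays) on the second Rbm3 probe. On slide 4, series B had 3.59 (4 arrays) against 5.25 at 8 h (2 arrays), on slide 5 series D had 3.57 against 5.16 (1 array each), and on slide 6 series C had 3.02 (1 array) against 4.27 (5 arrays). The differences of the second probe were −1.30, −1.66, −1.59 and −1.25, and those of the reference probe were −1.44, −1.05, −0.74 and −0.37. Late arrays lay below early ones within all 4 slides on both Rbm3 probes, and the share of all probes that did so was not computed. The arms were pooled within a slide, so these differences are not within an arm. On slide 5 the late array was sham and the early one iTBS. On slide 6 the late array was sham and the early ones came from sham, 1 Hz and iTBS. The Cirbp reference probe differed by −0.55 on slide 2, −0.11 on slide 4, 0.04 on slide 5 and 0.04 on slide 6. On slides 4 and 5 the early arrays were of 8 h only, and on slides 2 and 6 of 2 and 8 h.

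Whether stimulation changed Rbm3 or Cirbp was tested by comparing 1 Hz and iTBS with sham at each time. In a limma fit of all groups without a block, none of the 4 probes passed an adjusted p of 0.05 in any of these comparisons. None reached an unadjusted p under 0.05 in the 20 tests of 1 Hz or the 20 tests of iTBS in that fit. Differences between series stayed in its spread. Of all 35694 probes, 0% were called at 0, 24 and 48 h after 1 Hz, 0.0056% at 2 h and 0.0028% at 8 h, and after iTBS 0% at 0, 2, 24 and 48 h and 0.0056% at 8 h. Differences of 1 Hz from sham ran from −0.34 to 0.34 on the log2 scale, with standard errors of 0.19 to 0.48. Differences of iTBS from sham ran from −0.32 to 0.46, with standard errors of 0.17 to 0.45. The 95% confidence intervals reached from −1.31 to 1.03 for 1 Hz and from −1.09 to 0.99 for iTBS, and a p that misses the threshold does not show that the arms were alike.

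The largest of these differences was that of the Rbm3 reference probe at 0 h after iTBS, with 0.46 ± 0.26 (SE; limma p 0.0909, adjusted p 1.00). Within series it was 0.57, 0.36, 0.34 and 0.55 in series A to D, higher after iTBS in each. At 2 h the differences were 0.83, 0.49, −0.29 and 0.50. At 8 h they were −0.36, 0.09 and −0.68 in series B, C and D. At 24 h they were −0.52, 0.02 and −0.04, and at 48 h −0.69, 0.03 and −0.41 in series A, C and D. Over 0 and 2 h the iTBS array was above the sham array of the same series in 7 of 8 pairs, by a mean of 0.42 ± 0.32 (SD), and over 24 and 48 h in 2 of 6 pairs, with a mean of −0.27 ± 0.31 (SD). The second Rbm3 probe had the opposite signs, with −0.23 ± 0.32 (SD, 8 pairs) at 0 and 2 h and 0.09 ± 0.37 (6 pairs) at 24 and 48 h.

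The change from early to late times was therefore compared between the arms, a comparison added after these values were seen. It uses the early and late values that chose the members, so its p-values are given only as a description. On the Rbm3 reference probe the change within series was −1.41 ± 0.28 after iTBS (SD, 4 series), −1.24 ± 0.16 after 1 Hz (3 series) and −0.65 ± 0.30 in sham (4 series). The change of iTBS minus that of sham was −1.40, −0.90, −0.00 and −0.75 in series A to D. In the fit without a block the difference of changes was −0.62 ± 0.28 (SE, limma p 0.0336, adjusted p 0.926), and 0% of all probes passed. With the series at each time as a block it was −0.68 ± 0.16 (SE, adjusted p 0.0272) and passed, along with 2.93% of all probes. That call was lost under scaling by the 75th percentile (adjusted p 0.0713), quantile normalization (0.154) and normexp correction (0.135), and with the z-scores of the authors the adjusted p was 0.0450. In 9 of 29 fits that left out 1 array it was lost too, with adjusted p-values up to 0.119. These arrays were replicates 3 and 4 of sham at 2 h, replicate 1 at 24 h and replicates 1 and 3 at 48 h, and for iTBS replicate 1 of the 0 h group, 3 of the 2 h group, 1 of the 24 h group and 4 of the 48 h group. For 1 Hz the difference of changes was −0.29 ± 0.30 (SE, adjusted p 1.00) and with that block −0.52 ± 0.18 (adjusted p 0.235), and 0% of all probes passed in either fit.

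On the second Rbm3 probe the change did not follow that order of arms. It was −1.80 ± 0.53 in sham (SD, 4 series), −1.83 ± 0.47 after 1 Hz (3 series) and −1.59 ± 0.33 after iTBS (4 series). The change of iTBS minus that of sham was 1.20, −0.79, 0.29 and 0.15 in series A to D, so that series B had the sign of the reference probe. In the fit without a block it was 0.25 ± 0.42 (SE, limma adjusted p 0.951, 95% confidence interval −0.58 to 1.09), opposite in sign to the reference probe of the same gene, and it ran from 0.11 to 0.41 when single arrays were left out. On the Cirbp reference probe the changes were −0.48 ± 0.15 in sham, −0.56 ± 0.02 after 1 Hz and −0.61 ± 0.19 after iTBS (SD over series), and the difference of iTBS from sham was −0.15 ± 0.18 (SE, adjusted p 0.940).

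Averaged over the 5 times, neither protocol differed detectably from sham on any member probe, and 0% of all probes were called for either. For the Rbm3 reference probe the mean difference was 0.02 ± 0.13 (SE; 95% confidence interval −0.24 to 0.29) for 1 Hz and 0.03 ± 0.13 (−0.23 to 0.28) for iTBS. For the second Rbm3 probe it was −0.07 ± 0.20 (−0.47 to 0.33) and −0.12 ± 0.19 (−0.50 to 0.26). For the Cirbp reference probe it was 0.01 ± 0.09 (−0.17 to 0.18) and −0.03 ± 0.08 (−0.20 to 0.14). For the second Cirbp probe it was 0.06 ± 0.17 (−0.28 to 0.41) and −0.09 ± 0.16 (−0.41 to 0.24). The limma adjusted p was 1.00 in all 8 tests.

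A joint F test over the 10 comparisons with sham called 0.0028% of all probes and none of the members (limma adjusted p 1.00 for each of the 4). With the series at each time as a block, the F test of the Rbm3 reference probe had an unadjusted p of 0.0208 (limma adjusted p 0.536). In that fit 2899 of 35694 probes had an unadjusted p under 0.05, against 292 without the block, and 0 passed. The protocols were also compared with each other. Between iTBS and 1 Hz the member probes differed by −0.33 to 0.35 over 20 tests. None of these passed or reached an unadjusted p under 0.05 in limma without a block. Of all probes 0% were called at 0, 24 and 48 h, 0.0056% at 2 h and 0.0028% at 8 h.

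**Figure D4:**
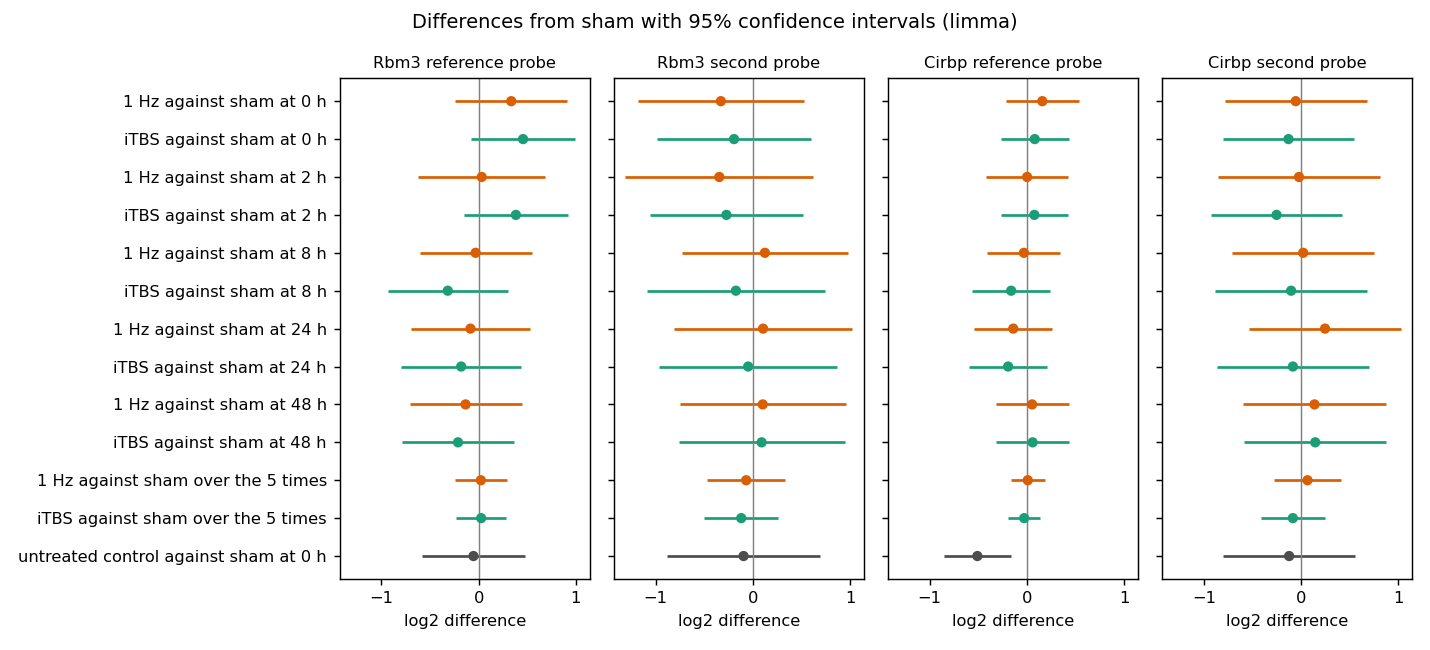
Log2 difference of each comparison with sham (points) and its 95% confidence interval in limma (lines), one panel per probe, with 1 Hz in orange, iTBS in green and untreated cultures in grey. All intervals of the stimulated arms include 0, and that of untreated cultures on the Cirbp reference probe runs from −0.86 to −0.16.

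Untreated cultures were compared with sham at 0 h, and no member probe passed the adjustment over all probes. On the Cirbp reference probe the untreated arrays had 6.83 and 6.83 in series A and 6.94 and 7.32 in series C. The 4 sham arrays had 7.43 to 7.53 on it, so the groups did not overlap. The share of all probes without such overlap was not computed. An unadjusted p under 0.05 in limma was reached by 868 of 35694 probes in this comparison. The difference was −0.51 ± 0.17 (SE, limma p 0.00495, adjusted p 1.00), and 0.0028% of all probes passed in this comparison. Within series it was −0.60 in A and −0.36 in C, and with the series at each time as a block it was −0.45 ± 0.14 (adjusted p 0.312). The second Cirbp probe differed by −0.12 ± 0.33 (SE, adjusted p 1.00), with 0.20 in series A and 0.14 in series C. For Rbm3 the differences were −0.05 ± 0.26 on the reference probe and −0.10 ± 0.39 on the second probe, both with an adjusted p of 1.00. On the second Rbm3 probe the untreated arrays lay at 5.98 and 6.48 in series A and at 4.49 and 4.59 in series C. Those of series C were below all 4 sham arrays, and 1 of series A was above them.

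The probes were compared with each other over the 55 arrays after the mean of each series was subtracted. The arrays share times and scaling, so Pearson's r is given as a description. The 2 Rbm3 probes had an r of 0.84, and the reference probes of Rbm3 and Cirbp 0.73. The second Cirbp probe had an r of 0.37 with the Rbm3 reference probe, 0.40 with the second Rbm3 probe and 0.45 with the Cirbp reference probe.

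**Figure D5:**
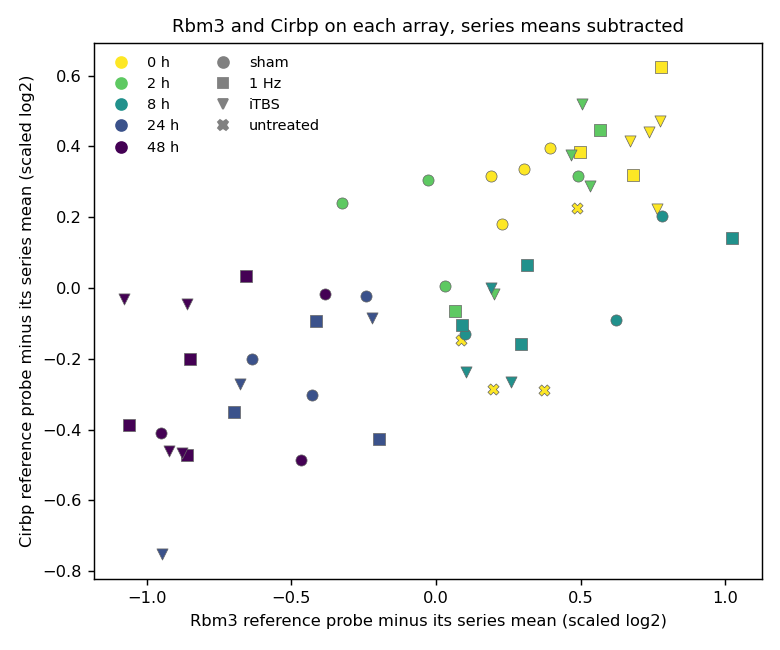
Rbm3 reference probe (horizontal) against Cirbp reference probe (vertical) on each of 55 arrays, as scaled log2 signal minus the mean of its series, coloured by time and with a symbol for each arm. Arrays of 0 and 2 h lie mostly at the upper right and those of 24 and 48 h at the lower left, with an r of 0.73.

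Genes whose pattern over the arrays was most like that of Rbm3 or Cirbp were ranked by this r among 13883 genes with a symbol, each by its probe with the highest mean signal. Highest for the Rbm3 reference probe were Lmnb2, which encodes a nuclear lamin, with an r of 0.84, and Noc4l (0.83), Wdr12 (0.83), Nolc1 (0.82) and Nop56 (0.82), which encode nucleolar proteins. Lowest were Plin4 (−0.94), Sema3b (−0.92) and Ikbke (−0.92). Cirbp came 71st for Rbm3. For the Cirbp reference probe the highest were Eny2 (0.85), Hmgb3 (0.81), Hnrnpa1 (0.79), 6330403K07Rikl (0.79) and Arhgap35 (0.77), and the lowest Pomt2 (−0.84), Gramd1b (−0.83) and Nfe2l2 (−0.83). Rbm3 came 19th for Cirbp.

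Genes linked to Rbm3 and Cirbp were followed as lists, and no member of any list passed a comparison of 1 Hz, iTBS or untreated cultures with sham or with each other in limma. Among 12 genes upstream or downstream of the pair, 7 had a higher and 5 a lower mean level at the late times, with a median change of 0.07 against −0.04 for all probes. Ntrk2, the receptor of BDNF, changed by 0.47 ± 0.34 (SD over 11 pairs of arm and series) and Clock, a core clock gene, by −0.31 ± 0.70, and 5 of 240 tests had an unadjusted p under 0.05. Over all tested probes and the same 20 comparisons 1.82% of tests did, a share to be read beside this count and those of the lists that follow. Of 10 relatives with RNA recognition motifs 9 were tested, 7 of them with a lower mean level, and the median change was −0.27. Hnrnpdl, an hnRNP family member, changed by −0.87 ± 0.21 and was lower in each of 11 pairs, and Hnrnpa1 changed by −0.37 ± 0.36. In that list 1 of 180 tests had an unadjusted p under 0.05.

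Of 7 proteins with a cold shock domain 6 were tested, with a median change of −0.13 and 1 of 120 tests at an unadjusted p under 0.05. Lin28a, a regulator of let-7 maturation, changed by −0.34 ± 0.39 and Carhsp1 by 0.28 ± 0.44 (SD over 11 pairs). Targets of heat shock factor, which respond to warming, had 12 of 14 members tested and a median change of 0.05, with 8 higher and 4 lower. Hspa1a, an inducible Hsp70 chaperone, changed by 1.04 ± 0.46 and was higher in each of 11 pairs, and Hspb1, a small heat shock protein, by 1.62 ± 1.28 and was higher in 10. Of the 4 lower members, Hsph1 changed most, by −0.25 ± 0.30. In that list 5 of 240 tests had an unadjusted p under 0.05.

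Markers of cell types were followed over the same times, and their part in the lower levels of Rbm3 and Cirbp was not tested. The 5 astrocyte markers had a median change of 0.80, 4 were higher and 3 were higher in every pair, and their mean level ran from 6.12 to 6.97 at 0 and 2 h and from 6.56 to 7.96 at 24 and 48 h. Gfap, the astrocyte intermediate filament, changed by 1.62 ± 0.56 and Aqp4, a water channel, by 0.88 ± 0.54 (SD over 11 pairs). The 8 neuron markers had a median change of −0.14, and 7 had a mean change below 0, against a median of −0.04 for all probes. Their mean level ran from 4.40 to 5.36 early and from 4.24 to 5.14 late. Tubb3 changed by −0.56 ± 0.71 and Map2 by −0.39 ± 0.59, both cytoskeletal genes of neurons, with SDs larger than the changes. Rbfox3 (−0.006 ± 0.77) and Snap25 (−0.015 ± 0.21) lay above the median of all probes. Gad1 changed by 0.12 ± 0.43 and was higher in 8 of 11 pairs. No test of either list had an unadjusted p under 0.05.

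The median change was 0.13 for 6 markers of the oligodendrocyte lineage, with Cspg4 at 0.44 ± 0.70 (SD over 11 pairs). It was 0.04 for 5 microglia markers, where Aif1 and Csf1r, with the largest changes, were not well above background on many arrays and are given no value, and 3 of 100 tests had an unadjusted p under 0.05. It was 0.01 for 3 endothelial markers, with Pecam1 at 0.06 ± 0.50 and no value for Cldn5, which was not well above background on most arrays, and 1 of 60 tests had an unadjusted p under 0.05. It was 0.00 for 4 fibroblast markers, with Lum at 0.68 ± 0.60 and Col1a1 at −0.58 ± 0.76, and −0.06 for 3 markers of progenitors and proliferation, with Nes at −0.44 ± 0.58 and Sox2 at 0.18 ± 0.40.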

How the data were processed

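RNA of rat hippocampal cultures was labelled with Cy3 and hybridised to 1-colour Agilent arrays. The deposited scanner files hold intensity per spot, background-subtracted and processed by Agilent Feature Extraction 12.0.3.1, with probe positions on rn4. The table of the authors holds 1 score per spot and array, for which the authors centred and scaled the log2 signal within each array. These z-scores were averaged over the spots of a probe and used only as an alternative.

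Groups came from the sample labels. Spots of a probe were averaged after outlier flags and control spots were left out, log2 processed signals were turned into z-scores within each array and multiplied by the median SD of 4.06. This scaling follows the methods of the study and removes differences in the overall spread of an array. Of 45598 probes, 420 without a value on some array were dropped, and 9484 that were well above background on fewer than 3 arrays were removed, which left 35694 tested probes, 17727 of them with a symbol. Symbols came from a RefSeq table (GRCr8) through accessions. 1 array with a badly placed grid was left out. The number of arrays limits the precision.

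All groups were fitted together with limma 3.58.1 in R 4.3.3, without a block, and p-values were adjusted over all tested probes by the Benjamini-Hochberg method with a threshold of 0.05. The script was tested on simulated data. Descriptions were computed in Python 3.11.15. The members and the lists were chosen with earlier results of these data known. All probes of both genes were named, with the 5 genes of highest and 3 of lowest r, and of each list the members that passed or otherwise the 2 with the largest change over time. The value of 1 list member that this rule names is not reported here. The comparison of changes between arms was added after seeing the data, as was normexp correction on median signals, since the planned one on mean signals could not be run on the columns used here.

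Samples with the same number in the title deviated from their group means with a mean correlation of 0.160 over 373 pairs (lowest −0.462, 57.6% above 0.1), against −0.06 for other pairs. For the series the mean was 0.398 over 360 pairs (lowest −0.02, 96.1% above 0.1), against −0.134 for other pairs. The rule asked for every pair above 0.1, which the series missed narrowly and the title numbers widely, so neither was a block in the main fit. Differences between series thus stayed in the spread of that fit. Of its tests over all probes 1.82% had an unadjusted p under 0.05 in limma, fewer than that threshold allows by chance, so it was cautious. Values within series are given as descriptions. The alternatives were other scalings, filters, blocks and the leaving out of single arrays.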

Additional observations from a re-analysis of the deposited data

Results flagged for a closer look

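The Cirbp reference probe had a level of 7.08 in replicate 2 of iTBS at 2 h (series C), while the other 3 arrays of that group had 7.57, 7.64 and 7.61. The gap to the nearest array was a share of 0.887 of the range of the group, above the 95% critical value of Dixon's test for 4 values. Over the 4 probes 32 groups of 4 arrays were examined in this way, and chance flags about 1 in 20 groups. The flagged array lay on slide 6, as did the array of 1 Hz at 2 h of series C, with a level of 7.03. Sham at 2 h of series C lay on slide 5, with 7.41. A part of the slide in these levels was not tested.

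The change of the Rbm3 reference probe from early to late times differed between iTBS and sham by −0.68 with the series at each time as a block (limma adjusted p 0.0272). It did not pass without the block, and the second Rbm3 probe differed by 0.25 in the other direction in the fit without a block. This comparison was added after its values were seen, and nothing is concluded from its p-value.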

How the results depend on the processing

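No test of a protocol against sham, or against the other, passed at a single time on any member probe in any alternative on the 55 arrays. With all 56 arrays 3 of 20 tests passed for 1 Hz against sham and 3 of 20 for iTBS against 1 Hz. These rest on the 1 array with a badly placed grid, with which the 1 Hz average of the Rbm3 reference probe became −0.58, and the change of 1 Hz against that of sham 1.22 on the Rbm3 reference probe and −0.43 on the second Cirbp probe.

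The lower late levels kept their direction in all scalings. On the Cirbp reference probe after 1 Hz the change was −0.62 with the 75th percentile, −0.53 with quantile normalization and −0.51 with the z-scores of the authors. Without single series the change of the second Cirbp probe ran from −0.31 to 0.078 after 1 Hz and from −0.25 to 0.065 after iTBS, and turned without series B. For the other probes, leaving out a series gave −1.54 to −0.52 for the Rbm3 reference probe, −2.05 to −1.50 for the second Rbm3 probe and −0.68 to −0.43 for the Cirbp reference probe over the arms.

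The replicate block moved small averages across 0. With the series at each time as the replicate block, the 1 Hz averages were −0.011 (Cirbp reference), −0.035 (Rbm3 reference) and 0.0075 (Rbm3 second), the iTBS average of the Rbm3 reference probe was −0.00071, and untreated cultures differed by 0.13 on the second Cirbp probe. With the series alone as the replicate block untreated cultures differed by 0.0020 on the second Rbm3 probe. With the slide as a block the 1 Hz average of the second Rbm3 probe was 0.013, and untreated cultures differed by 0.081 on the Rbm3 reference and 0.078 on the second Rbm3 probe. The iTBS average of the Rbm3 reference probe was −0.020 with the 75th percentile, −0.041 with quantile normalization and −0.040 with normexp. Untreated cultures differed on it by 0.034 and 0.033 with the latter pair. With quantile normalization the difference of changes on the Cirbp reference probe was 0.025 for 1 Hz and 0.044 for iTBS, and with the 75th percentile that of iTBS on the second Cirbp probe was −0.016. The difference of changes of the Rbm3 reference probe after iTBS passed only with the series at each time as the replicate block. It was then −0.68, and −0.48 with the 75th percentile, −0.34 with quantile normalization and −0.32 with normexp, where it no longer passed.

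Leaving out single arrays gave untreated differences of −0.15 to 0.077 (Rbm3 reference), −0.46 to 0.20 (Rbm3 second) and −0.32 to 0.066 (Cirbp second). The 1 Hz averages ran from −0.036 to 0.076 (Rbm3 reference), −0.19 to 0.053 (Rbm3 second), −0.067 to 0.082 (Cirbp reference) and −0.050 to 0.18 (Cirbp second). The iTBS averages ran from −0.034 to 0.079 (Rbm3 reference), −0.052 to 0.011 (Cirbp reference) and −0.16 to 0.0046 (Cirbp second). The changes of 1 Hz against sham ran from −0.31 to 0.063 (Cirbp reference) and −0.057 to 0.52 (Cirbp second), and the blocked change of iTBS from −0.80 to −0.59. The cause of these moves was not tested. No probe of either gene was limited by background or saturation.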
